A study of Mus musculus with 6 samples.

Results

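The genes described here are 10 inhibitors of the ERK pathway or of the p38 and JNK kinases, called feedback genes below. They are the dual-specificity phosphatase genes Dusp1, Dusp2, Dusp4, Dusp5, Dusp6 and Dusp10, the Sprouty genes Spry1 and Spry2, and Spred1 and Spred2. They were taken by symbol from a table of 23203 loci, and each matched 1 locus that names no other gene. Of the 10 genes, 9 were among the 10228 loci whose mean over all libraries reached 1 FPKM. FPKM are fragments counted per kilobase and scaled for library size, and the way of scaling was not given. The set was chosen by values of the same contrast that is described below, with Spry1 higher and Dusp5 lower with 2DG already known. The differences between the groups are therefore given for these genes as descriptions, without p-values.

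Naive CD4 T cells of the mouse were stimulated with plate-bound anti-CD3e (10 µg/ml) and anti-CD28 (1 µg/ml) and polarized for 48 h toward Th17 cells, the helper T cells that make IL-17, with IL-23 at 10 ng/ml, IL-6 at 20 ng/ml and TGFb1 at 2.5 ng/ml. These agents were used in both groups, and either vehicle (DMSO) or 2DG (2-deoxyglucose, a glucose analogue that inhibits glycolysis) at 250 µM was added to them. Strain, age, sex and genotype of the mice were not given in the labels. Each group had 3 libraries. Their titles carry the numbers 17, 42 and 43 in both groups, called replicates 1, 2 and 3 here, and the labels do not say what a number marks. Nothing in the labels says that the libraries came from separate animals or cultures, so errors and p-values cover no more than the spread among these 6, and that may be technical.

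When a T cell receptor is engaged, Ras activates Raf, MEK and ERK in turn, and active ERK switches on transcription of its own inhibitors. DUSP proteins remove the activating phosphates from ERK, p38 or JNK kinases, while Sprouty and Spred proteins act further up, between the receptor and Raf. The levels of their transcripts are often read as a record of recent ERK activity, although each gene also has other inputs. Phosphorylated ERK was not measured in the values used here.

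Starts of 3 of these genes are shown first, since Dusp6 and Spry1 lay higher and Dusp5 lower with 2DG. The windows come from RefSeq (GRCm38.p6) and were used for 9 of the 10 genes (all but Dusp4). Motifs were searched in the 250 bases before the first listed RefSeq start of each gene. The 3 printed windows stop before the first base that GENCODE M21 annotates as transcribed. Windows of the other genes were not cut there, so their matches may lie in annotated transcript. All 3 printed windows lie on the plus strand. Capitals mark matches to any of 7 motifs searched on both strands, which were chosen when the expression values were already known. These were the CArG box, to which serum response factor binds, the cAMP response element (TGACGTCA), the AP-1 site (TGANTCA), the E-box (CACGTG), the ETS site (CGGAAG), the GC box (GGGCGG) and the TATA box (TATAAA).
Spry1, chr3:37639697-37639946: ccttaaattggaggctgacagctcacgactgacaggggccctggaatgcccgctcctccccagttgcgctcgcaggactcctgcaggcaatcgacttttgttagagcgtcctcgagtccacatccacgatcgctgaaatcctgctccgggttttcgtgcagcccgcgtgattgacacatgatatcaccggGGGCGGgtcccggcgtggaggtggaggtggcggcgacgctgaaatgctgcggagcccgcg
Dusp6, chr10:99262981-99263230: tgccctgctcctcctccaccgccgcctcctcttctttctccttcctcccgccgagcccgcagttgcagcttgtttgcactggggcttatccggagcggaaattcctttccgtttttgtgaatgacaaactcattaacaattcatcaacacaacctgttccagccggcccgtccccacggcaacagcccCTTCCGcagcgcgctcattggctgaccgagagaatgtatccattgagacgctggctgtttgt
Dusp5, chr19:53528895-53529108: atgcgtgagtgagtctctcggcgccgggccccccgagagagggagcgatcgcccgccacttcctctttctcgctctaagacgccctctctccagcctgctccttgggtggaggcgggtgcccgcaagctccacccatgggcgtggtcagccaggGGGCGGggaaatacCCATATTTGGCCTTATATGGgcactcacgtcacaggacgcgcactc

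The Dusp5 window held 2 CArG boxes that touch each other, at bases -82 to -73 and -72 to -63 from the RefSeq start, and a GC box. A CArG box was found in 1.47% of 32851 such windows of 250 bases over all genes, and 2 or more in 6 windows (0.0183%). None of the other 8 windows of these genes held one. The Dusp6 window held an ETS site, as did those of Spred1 and Spred2 (13.6% of all windows), and the Spry1 window held a GC box (32.7%), as did all the others but those of Dusp6 and Spry2. In Spred2 the ETS site and the GC box shared bases. The Spry2 window held none of the 7 motifs. Dusp1 had the cAMP response element (1.55% of all windows) and, like Dusp2, an E-box (6.02%). AP-1 sites (6.75% of all windows) and TATA boxes (12.4%) were in none of the 9. A match is a run of letters, and binding was not measured.

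In cultures with 2DG the feedback genes did not move as a block. Dusp6, Spry1, Dusp10 and Spred1 lay higher in every 2DG library than in any vehicle library, Dusp5 and Spred2 lay lower in every 2DG library, and Dusp1, Dusp2 and Dusp4 overlapped between the groups. Such separation was found in 23.7% of all tested loci, with 11.9% higher and 11.8% lower. In a limma fit over all tested loci, 4 of the 9 tested genes passed an adjusted p of 0.05, namely Dusp6, Spry1 and Dusp10 higher and Dusp5 lower, while 2.72% of all loci passed, 1.53% higher and 1.19% lower. As the genes were chosen on this contrast, nothing is read from these counts. The median log2 difference of the 9 genes was 0.23 and that of all tested loci -0.01, and the medians of the absolute difference were 0.56 and 0.13. In these bulk cultures, fewer cells of a type and less RNA per cell cannot be told apart.

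**Figure D1:**
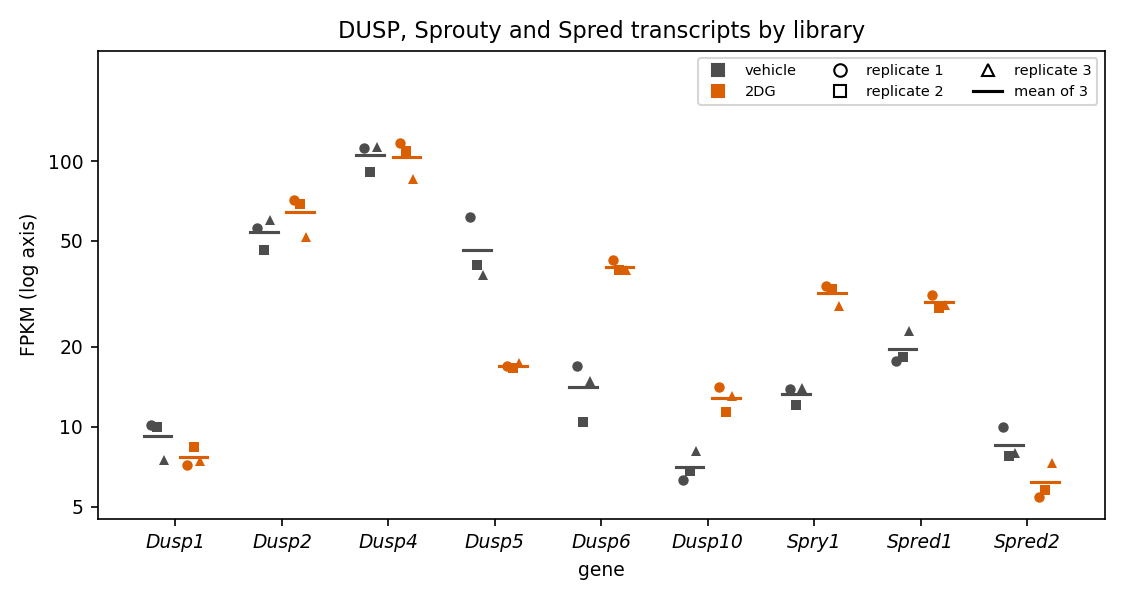
FPKM on a log axis for 9 of the genes in each library, with vehicle in grey and 2DG in orange, symbols for replicates 1 to 3 and a line at the mean of 3. The vehicle and 2DG points change places between Dusp5 (37.1 to 61.6 against 16.7 to 17.4) and Dusp6 (10.4 to 16.9 against 38.7 to 42.4), and Spry2, under 0.4 FPKM in all libraries, is not drawn.

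Dusp5 and Dusp6, whose products both act mainly on ERK, lay in opposite directions. Dusp5, which encodes a nuclear ERK phosphatase (locus XLOC_010170, chromosome 19, 53529109 to 53542431, plus strand, GENCODE M21 on GRCm38), was at 61.6, 40.6 and 37.1 FPKM in vehicle replicates 1, 2 and 3 and at 16.8, 16.7 and 17.4 FPKM with 2DG. The groups did not overlap, and the vehicle libraries were spread more widely, with replicate 1 well above the other two, than the 2DG libraries, which nearly coincided. The means were 46.4 ± 13.2 and 17.0 ± 0.402 FPKM (SD, n = 3 each), 2.73-fold lower with 2DG. The difference in log2(FPKM + 1) was -1.36 ± 0.18 (SE of the fit). It ran from -1.50 to -1.15 when any library was left out, and the gene did not pass the threshold without 2DG replicate 1 or without 2DG replicate 2.

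Dusp6, which encodes a cytoplasmic phosphatase of ERK (XLOC_001685, chromosome 10, 99263231 to 99267489, plus strand), was at 16.9, 10.4 and 14.9 FPKM in the vehicle libraries and at 42.4, 38.9 and 38.7 FPKM in those with 2DG. Its lowest 2DG library was 2.29 times its highest vehicle library. The means were 14.1 ± 3.33 and 40.0 ± 2.06 FPKM (SD, n = 3 each), 2.84-fold higher with 2DG. This was the largest of the 9 differences, 1.47 ± 0.16 (SE) in log2(FPKM + 1), and 1.45% of all tested loci had a larger one in either direction. It kept its side of the threshold without each library in turn, with values between 1.28 and 1.61.

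Since FPKM is scaled by transcript length, levels of different genes can be set side by side within a library. Per library, the ratio of Dusp6 to Dusp5 FPKM was 0.275, 0.257 and 0.400 with vehicle and 2.52, 2.34 and 2.22 with 2DG. Dusp5 was thus above Dusp6 in all 3 vehicle libraries and below it in all 3 2DG libraries. Summed over the 6 DUSP genes, FPKM was 236 ± 29.0 with vehicle and 245 ± 28.4 with 2DG (SD, n = 3 each), with groups that overlap. Within this sum, the share of Dusp5 was 19.6% ± 3.97 with vehicle and 7.0% ± 1.01 with 2DG, and that of Dusp6 was 5.90% ± 0.728 and 16.4% ± 1.48 (SD, n = 3 each). Dusp4 was the largest share in both groups, at 44.6% ± 2.17 and 42.1% ± 2.00 (SD, n = 3 each).

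**Figure D2:**
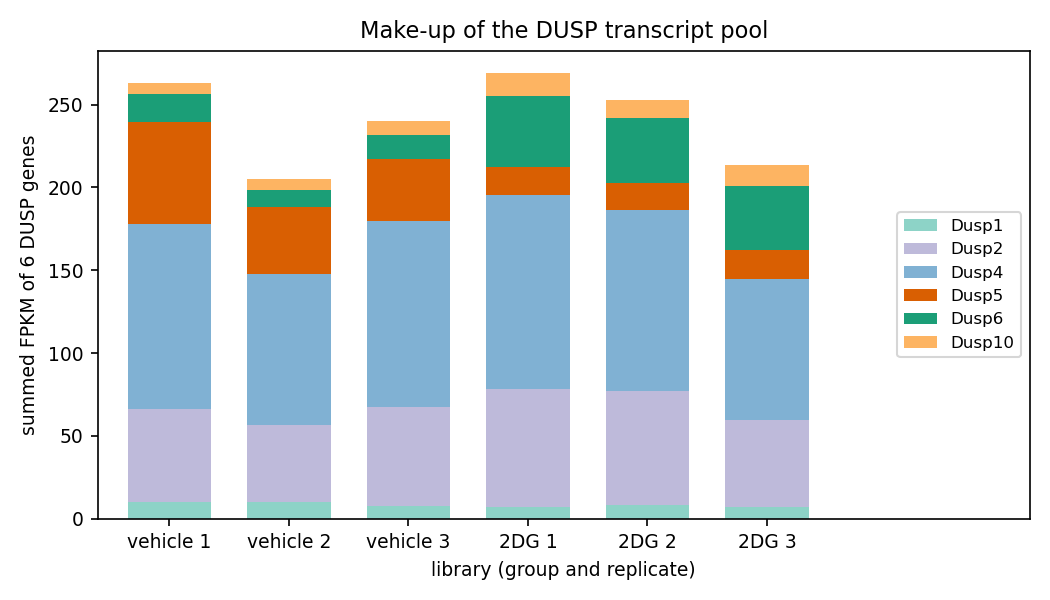
Stacked FPKM of 6 DUSP genes in each library, from 0, with the 3 vehicle libraries at the left. The summed height was 205 to 263 FPKM with vehicle and 214 to 269 FPKM with 2DG, while the Dusp5 band is wider in every vehicle library and the Dusp6 band in every 2DG library.

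The inducible nuclear phosphatases with wider substrate range overlapped between the groups. Dusp1, an immediate early gene whose product acts on p38, JNK and ERK (XLOC_008894, chromosome 17, 26505590 to 26562128, minus strand), was at 10.1, 9.95 and 7.49 FPKM in the vehicle libraries and at 7.18, 8.39 and 7.43 FPKM in those with 2DG. Vehicle replicate 3 lay within the range of the 2DG libraries, and the log2 difference was -0.22 ± 0.13 (SE). Dusp2, a phosphatase gene typical of activated lymphocytes (XLOC_011203, chromosome 2, 127336159 to 127338376, plus strand), was at 56.0, 46.4 and 59.7 FPKM in the vehicle libraries and at 71.1, 69.0 and 52.0 FPKM in those with 2DG. Here 2DG replicate 3 lay among the vehicle values, with a log2 difference of 0.23 ± 0.15 (SE).

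Dusp4, the most abundant of the 10 transcripts (XLOC_019837, chromosome 8, 34807297 to 34819894, plus strand), encodes a nuclear phosphatase of ERK and JNK. It was at 112, 91.2 and 113 FPKM in the vehicle libraries and at 117, 109 and 85.2 FPKM in those with 2DG. Both groups covered nearly the same range. The log2 difference was -0.03 ± 0.14 (SE) and ran from -0.13 to 0.11 when any library was left out, taking both signs.

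Dusp10, whose product prefers p38 and JNK over ERK (XLOC_000600, chromosome 1, 184013302 to 184075636, plus strand), was at 6.28, 6.79 and 8.08 FPKM in the vehicle libraries and at 14.1, 11.3 and 13.01 FPKM in those with 2DG. The groups did not overlap. The means were 7.05 ± 0.925 and 12.8 ± 1.40 FPKM (SD, n = 3 each), 1.82-fold higher with 2DG, with a log2 difference of 0.78 ± 0.12 (SE). Of the 6 fits that left out 1 library it passed in 1, that without vehicle replicate 3, and the difference ran from 0.71 to 0.87 over the 6.

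Spry1, a Sprouty gene that restrains signalling from the T cell receptor and from growth factor receptors (XLOC_012615, chromosome 3, 37639947 to 37644598, plus strand), was at 13.9, 12.1 and 14.0 FPKM in the vehicle libraries and at 33.9, 33.0 and 28.6 FPKM in those with 2DG. Each 2DG library lay at least 2.04 times above each vehicle library. The means were 13.3 ± 1.07 and 31.8 ± 2.86 FPKM (SD, n = 3 each), 2.39-fold higher with 2DG. Without each library in turn it stayed past the threshold, with log2 differences between 1.13 and 1.27. Spry2 (XLOC_006568, chromosome 14, 105891947 to 105896819, minus strand), its close relative, was listed at 0.217, 0 and 0.0900 FPKM in the vehicle libraries and at 0.394, 0.0918 and 0.259 FPKM in those with 2DG. It was under the filter in both groups and was not tested, so Spry1 made up nearly all Sprouty transcript of this set.

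Set against each other, Spry1 and Dusp5 exchanged their order. The ratio of Spry1 to Dusp5 FPKM was 0.226, 0.298 and 0.376 with vehicle and 2.01, 1.98 and 1.64 with 2DG. Every vehicle library had less Spry1 than Dusp5, and every 2DG library had more. The log2 ratio was 2.67 ± 0.23 higher with 2DG (SE from the spread of 3 libraries a group). This pair was chosen for its difference, and the ratio is a description.

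The Spred genes, whose products hold back Ras by bringing in its inhibitor neurofibromin, also lay in opposite directions. Spred1 (XLOC_011121, chromosome 2, 117121374 to 117182279, plus strand) was at 17.6, 18.3 and 22.9 FPKM in the vehicle libraries and at 31.2, 28.04 and 28.8 FPKM in those with 2DG. Its groups did not overlap, the ratio of means was 1.49 and the log2 difference was 0.56 ± 0.11 (SE), just short of the threshold. Spred1 passed it in 7 of 17 alternative fits, among them the fits without vehicle replicate 3, with a pseudocount of 0.1 and without small RNA genes. Spred2 (XLOC_002416, chromosome 11, 19924375 to 20024026, plus strand) was at 9.99, 7.74 and 7.96 FPKM in the vehicle libraries and at 5.42, 5.78 and 7.32 FPKM in those with 2DG. The highest 2DG library and the lowest vehicle library lay close together, and the log2 difference was -0.42 ± 0.14 (SE). Per library, the ratio of Spred1 to Spred2 FPKM was 1.77, 2.37 and 2.88 with vehicle and 5.76, 4.85 and 3.93 with 2DG.

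Among the genes with their threshold crossed, Dusp10 had the smallest absolute difference (0.78), and Spred1 (0.56) was the largest of those that did not cross it.

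**Figure D3:**
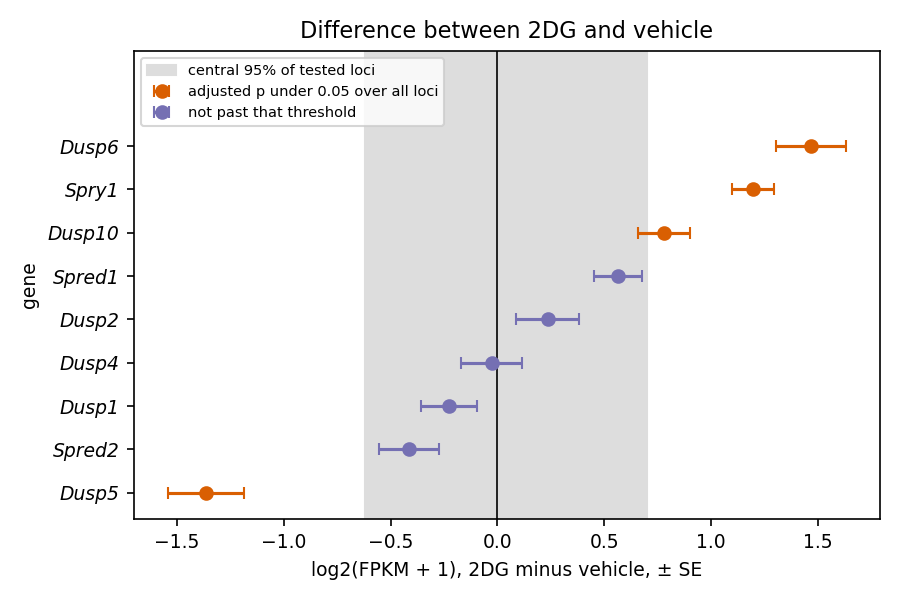
Difference in log2(FPKM + 1) between 2DG and vehicle (x axis) with the SE of the fit, for 9 genes ordered by its size (y axis). Orange points passed an adjusted p of 0.05 over all loci, purple points did not, and the grey band holds the central 95% of all tested loci (-0.62 to 0.70), outside which lie Dusp5, Dusp10, Spry1 and Dusp6.

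In vehicle the order of mean FPKM was Dusp4, Dusp2, Dusp5, Spred1, Dusp6, Spry1, Dusp1, Spred2, Dusp10 and Spry2. Neighbours in this order whose libraries overlapped were Dusp2 with Dusp5, Dusp6 with Spry1, Dusp1 with Spred2 and Spred2 with Dusp10. With 2DG the order was Dusp4, Dusp2, Dusp6, Spry1, Spred1, Dusp5, Dusp10, Dusp1, Spred2 and Spry2, and overlap was seen between Spry1 and Spred1 and between Dusp1 and Spred2. Dusp5 thus moved from the third place to the sixth and Dusp6 from the fifth to the third.

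The profiles most like that of Spry1 were sought among 9169 tested loci, by the root mean square distance of log2(FPKM + 1) over the 6 libraries after centring each gene on its mean. The nearest were Ppfibp1, for a liprin scaffold protein (0.087), Slc1a4, a transporter of small neutral amino acids (0.088), Il17a, the defining cytokine of Th17 cells (0.094), and Plk2, a polo-like kinase gene (0.110). Ppfibp1 was at 12.6, 12.97 and 15.3 FPKM in the vehicle libraries and at 35.5, 33.9 and 31.0 FPKM in those with 2DG. Dusp6 lay at a distance of 0.200 from Spry1 and Dusp10 at 0.257. The profiles nearest to Dusp5 were less close. They were those of Nedd4, a ubiquitin ligase gene (0.173), Tgm1, a transglutaminase gene (0.185), Cd226, an activating receptor gene of lymphocytes (0.188), and Gprc5a (0.195). Cd226 was at 11.2, 9.58 and 7.72 FPKM in the vehicle libraries and at 3.54, 3.39 and 4.54 FPKM in those with 2DG. Spred2, at 0.500, was the nearest of the other feedback genes to Dusp5. The distance includes the group difference for which Spry1 and Dusp5 were chosen, so near profiles have a like difference with 2DG. Shared regulation was not tested.

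Around these genes, 75 others of the pathway were listed in 6 groups, of which 64 were tested, 3 rose, 3 fell and 58 did not pass (limma, Benjamini-Hochberg adjusted p under 0.05 over all loci). The background shares are those given above. These lists were chosen with earlier results of these data known. With replicates 2 and 3 only, 0 of the list genes were called higher and 0 lower. Other settings are given at the end. Other phosphatases and Sprouty family genes gave 0 calls among 6 tested, with 1 higher and 0 lower at an unadjusted p under 0.05, and their median log2 difference was -0.02. Dusp14 was at 5.86 ± 1.97 and 10.7 ± 1.23 FPKM (SD, n = 3 each), with an adjusted p of 0.12. Ptpn7, for a phosphatase of ERK in blood cells, was at 48.3 and 51.5 FPKM (adjusted p = 0.74), and Dusp22 at 14.4 and 12.8 FPKM (adjusted p = 0.64). The 6 untested genes reached at most 0.861 FPKM in any library.

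The core cascade from receptor to ERK had 1 of 16 genes higher and 0 lower by limma (unadjusted 2 higher and 1 lower) and a median of 0.08. Ksr1, the scaffold that holds Raf, MEK and ERK together, rose from 5.14 ± 0.278 to 9.72 ± 1.87 FPKM (SD, n = 3 each), a log2 difference of 0.79 ± 0.14 (SE; limma adjusted p = 0.035). Without 2DG replicate 3 it passed, and it lost its call without any other library (highest adjusted p = 0.12). Map2k1, for MEK, was at 77.1 and 73.7 FPKM (adjusted p = 0.75), and Lat, for the adaptor below the T cell receptor, at 346 and 349 FPKM (adjusted p = 0.96).

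Among 13 other inhibitors of Ras and ERK, 2 fell and 0 rose by limma (unadjusted 2 lower and 1 higher), with a median of -0.05. Dok2, for an adaptor that recruits a Ras inhibitor, fell from 31.4 ± 3.14 to 18.5 ± 3.04 FPKM (mean ± SD of 3 libraries a group; limma adjusted p = 0.041). Dgka, for the diacylglycerol kinase that limits Ras activation in T cells, fell from 82.6 ± 12.2 to 53.1 ± 2.47 FPKM (mean ± SD of 3 libraries a group; limma adjusted p = 0.039). Both lost their call without any library (adjusted p from 0.054 to 0.13 for Dok2 and from 0.058 to 0.14 for Dgka). Pebp1 (53.5 and 51.4 FPKM, adjusted p = 0.77), Dgkz (46.5 and 50.9 FPKM, adjusted p = 0.61) and Rasal3 (47.8 and 40.8 FPKM, adjusted p = 0.29) did not pass.

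Of 12 tested transcripts known to follow ERK activity, 1 rose and 0 fell by limma (unadjusted 3 higher and 1 lower), and the median was 0.03. The one that rose was Egr3, a zinc finger factor induced by the T cell receptor, from 2.76 ± 0.764 to 5.79 ± 0.137 FPKM (mean ± SD of 3 libraries a group; limma adjusted p = 0.042). It was lost without any library (adjusted p from 0.053 to 0.14). Junb (462 and 422 FPKM, adjusted p = 0.53), Mcl1 (139 and 134 FPKM, adjusted p = 0.79) and Myc (57.2 and 55.8 FPKM, adjusted p = 0.93) were the most abundant of those that did not pass.

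Of 7 ETS and serum response factors downstream of ERK, 1 rose and 1 fell by limma (unadjusted 2 higher and 1 lower). The median log2 difference of this list was 0.10. Elk3, a partner of serum response factor, rose from 24.8 ± 2.03 to 36.7 ± 3.26 FPKM (mean ± SD of 3 libraries a group; limma adjusted p = 0.039), and passed without 2DG replicate 3 but not without any other library (highest adjusted p = 0.14). Ets1 fell from 297 ± 16.6 to 202 ± 4.56 FPKM (mean ± SD of 3 libraries a group; limma adjusted p = 0.018), and passed without vehicle replicate 1 or 3 but not without any other library (highest adjusted p = 0.080). Srf, the gene of serum response factor, was at 23.2 ± 1.88 and 25.0 ± 1.23 FPKM (mean ± SD of 3 libraries a group; limma adjusted p = 0.59). Elk4 was at 25.7 and 33.0 FPKM (adjusted p = 0.12) and Etv3 at 9.84 and 11.3 FPKM (adjusted p = 0.46).

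The p38 and JNK modules, on which Dusp1 and Dusp10 act, gave 0 calls among 10 tested genes by limma (unadjusted 2 higher and 0 lower), with a median that rounds to 0 on the log2 scale. Mapk14, the gene of p38 alpha, was at 30.3 ± 3.08 and 42.2 ± 2.70 FPKM (mean ± SD of 3 libraries a group; limma adjusted p = 0.056). It passed in 3 of 17 alternative fits, namely robust eBayes, loci of status OK and without small RNA genes. Map2k3 (57.2 and 51.5 FPKM, adjusted p = 0.54) and Map3k1 (25.2 and 23.1 FPKM, adjusted p = 0.50) did not pass.

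**Figure D4:**
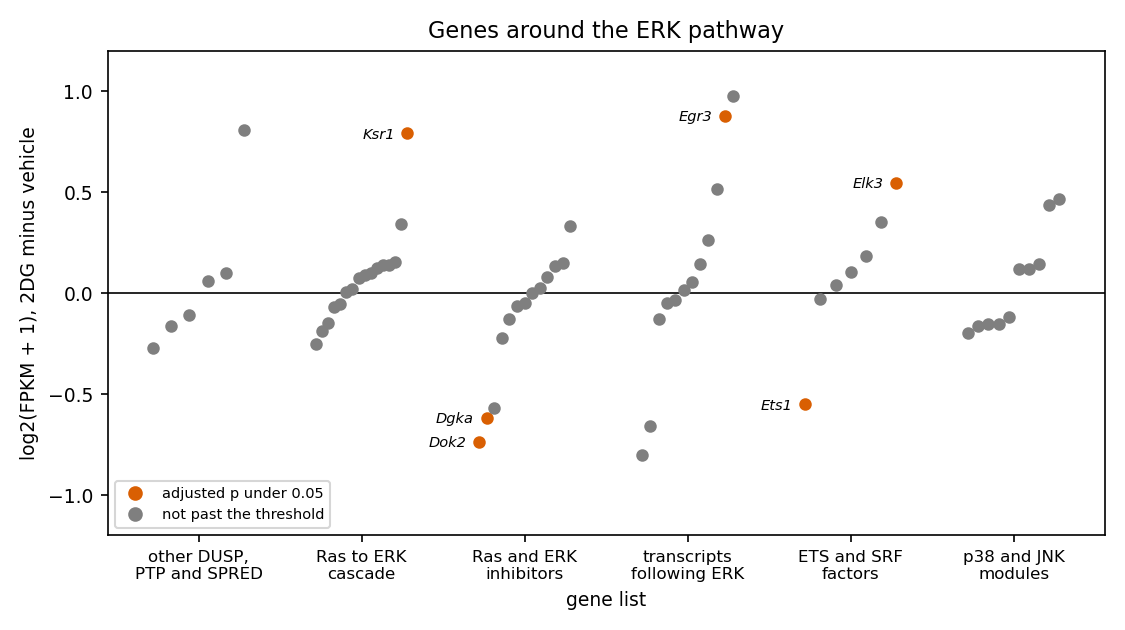
Difference in log2(FPKM + 1) between 2DG and vehicle (y axis) for each tested gene of 6 lists around the ERK pathway (x axis), 1 point a gene, ordered by size within its list. Orange, named points passed an adjusted p of 0.05, namely Ksr1, Egr3 and Elk3 above 0 and Dok2, Dgka and Ets1 below it.

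The libraries had the transcripts of CD4 T cells, with Cd4 at 102 and 94.1 FPKM (vehicle and 2DG), Cd3e at 47.9 and 54.8 FPKM and Il17f at 1501 and 1958 FPKM. Markers of B cells, myeloid cells and NK cells summed to at most 1.47, 2.59 and 0.0755 FPKM in any library, with Klrb1c at 0 in all of them. Cd8a and Cd8b1 together were at 2.68 to 3.31 FPKM with vehicle and 2.91 to 5.51 FPKM with 2DG, and their part in the results was not tested. Sums of FPKM per library ran from 1469420 to 1958740 and 75th percentiles from 10.9 to 11.6. Absolute depth is unknown, and a rough relative depth, read from low values, was lowest in vehicle replicate 2 (0.418 of that in vehicle replicate 1) and highest in 2DG replicate 1 (1.11). Libraries of a group correlated at r of 0.984 to 0.991 over tested loci (log2 values, small RNA genes left out), and those of different groups at 0.971 to 0.983.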

How the data were processed

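RNA was sequenced in 3 vehicle and 3 2DG libraries, and the authors deposited 1 table with an FPKM column for each library, per the file headers. Cufflinks 2.2.1.0, Cuffdiff 2.2.1.3, Cuffnorm 2.2.1.1, TopHat2 2.1.0 and mm10 are named in the submitters' processing notes. For settings, annotation, strand use and scaling, the sources used here say nothing. FPKM are estimates, uncertain where genes overlap, and a listed 0 may be an estimate that failed.

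FPKM do not allow a count test. The low values did not give whole reads: at most 22.6% of their log2 ratios between libraries lay within 0.05 of the most frequent one. Values were taken as log2(FPKM + 1), which understates changes of low genes, and fitted with limma 3.58.1 (R 4.3.3; lmFit, eBayes with trend) for the 10228 loci whose mean reached 1 FPKM, with group as the only term. Tests were two-sided, with Benjamini-Hochberg adjustment over all tested loci and a threshold of 0.05. An exact permutation test of 3 against 3 libraries cannot go below 0.1. The code was tested on simulated data. No pair of libraries shared more than 0.479% of values. No label says that the numbers pair the libraries, so they were not used as pairs. Same-numbered libraries did not deviate together in every case, which cannot settle whether they are pairs.

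Members and lists were chosen with earlier results of these data known. The text names every member, each pathway gene that passed and the 3 most abundant others of each list, and the 4 profiles nearest to Spry1 and to Dusp5, leaving out predicted genes, pseudogenes and small RNAs. A gene that this rule names in the cascade list is not reported here. Coordinates are from GENCODE M21 and windows from RefSeq, both on GRCm38, the assembly that mm10 denotes. Alternatives fixed at the start were a pseudocount of 0.1, no filter (loci at 0 in all libraries left out), a minimum mean of 5 FPKM, quantile normalization, equal sums, eBayes without trend or robust, the replicate block and leaving out each library. Those chosen after seeing the data were replicates 2 and 3 only, loci of status OK and no small RNA genes. Python 3.11.15 and matplotlib 3.10.9 made the figures.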

Additional observations from a re-analysis of the deposited data

How the results depend on the processing

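The 153 values of the feedback genes under the 17 alternatives each moved by less than 1 SD between replicates. Most of them could not have moved further, so stability is not read from this. Changes of the loci tested, of eBayes or of the block leave these differences as they are. Leaving out 1 library moves the mean of its group by less than 1 SD of that group. Dusp6 and Spry1 passed the threshold under all 17, Dusp5 under 15, Dusp10 under 8 and Spred1 under 7. Since the feedback genes were chosen on this contrast, nothing is read from these counts of fits. Of these genes, 0 were called lower without 2DG replicate 1 or 2, and with each library left out in turn the number called lower was 0 or 1. The counts of loci called, higher and lower, moved from 156 and 122 by more than 1.5 times in several fits. They were 93 and 61 with equal sums, 247 and 199 with robust eBayes, 57 and 44 with the replicate block, 43 and 28 with replicates 2 and 3 only, and 269 and 245 without small RNA genes. Without a filter 77 were lower. With each library left out in turn they ran from 52 to 98 and from 25 to 69. Of the pathway list genes, 3 higher and 3 lower became 0 higher without a filter, 1 and 0 with equal sums, 6 higher with robust eBayes, 0 and 0 with the replicate block and with replicates 2 and 3 only, 5 higher with loci of status OK, and 6 higher without small RNA genes. With each library left out in turn they ran from 0 to 3 and from 0 to 1. The cause was not tested. Under the replicate block Dusp5, Dusp6 and Spry1 were called and Dusp10 was not. The block rests on the number only. Same-numbered libraries correlated in their deviations at -0.05, 0.19 and -0.11, which cannot settle whether they are pairs. No setting shifted the median of all tested loci further than leaving out vehicle replicate 1 (-0.0141 on the log2 scale). Without counts, depth could not be turned into limits for Spry2, the lowest gene here.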
